A study of Mus musculus with 12 samples.

Results

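The respiratory chain genes described here were the rows of the deposited FPKM table (fragments per kilobase of transcript, scaled to the depth of the library) whose mouse symbol belongs to one of the named subunit families of the chain. The families were Nduf, Sdha to Sdhd, Uqcr, Cox4 to Cox8, Atp5 and the mitochondrial genes mt-Nd, mt-Co, mt-Cytb and mt-Atp, with pseudogenes left out. This rule gave 100 of 24432 genes, 93 encoded in the nucleus and 7 in the mitochondrial genome. The nuclear genes comprised 36 subunits of complex I and 8 of its assembly factors (Ndufaf genes), 4 genes of complex II, 8 of complex III, 20 of complex IV and 17 of complex V. The 7 mitochondrial genes were mt-Nd2, mt-Nd4, mt-Nd5, mt-Nd6, mt-Co1, mt-Co2 and mt-Atp6, of 13 protein-coding genes in the mouse mitochondrial annotation. The rule found no row for the other 6, mt-Cytb of complex III among them. The mitochondrial sums and ratios below therefore leave them out. Of the 100 genes, 98 reached 1 FPKM in at least 3 libraries and were tested. The exceptions were Cox7b2, at 0.832 FPKM or less in every library, and Cox8c, above 0 in a single metastasis.

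The study holds 12 bulk RNA libraries from mouse in 4 groups of 3. Primary kidney tumors and lung metastases were taken 4 months after 1-month-old Slc34a1CreERT2;Lats1/2flox/flox mice of mixed background received 3 tamoxifen injections. In these mice the recombinase acts in cells that express Slc34a1, a phosphate transporter of the proximal tubule, and removes the Hippo pathway kinases Lats1 and Lats2. Allograft tumors grew from Lats1-/-;Lats2-/- cells injected beneath the kidney capsule of 6 to 8-week-old NOD/scid hosts, which lack T and B cells, and were dissected after 6 weeks. The comparison cells were proximal tubule cells sorted by a Tomato reporter from Slc34a1CreERT2;Lats1c/c;Lats2c/+;RosaTomato mice. They are described as wild type although they carry the Cre and conditional alleles as well. Whether these alleles were recombined in the sorted cells was not checked here. The labels do not say that replicates came from separate animals, so every p-value measures only the spread between these libraries, which may be technical.

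The respiratory chain lies in the inner mitochondrial membrane. Complexes I and II feed electrons to ubiquinone, complex III passes them to cytochrome c, complex IV hands them to oxygen, and complex V (ATP synthase) uses the proton gradient to make ATP. Complexes I, III, IV and V are built from subunits of both genomes, whereas complex II, which is also succinate dehydrogenase of the citric acid cycle, is encoded in the nucleus alone. Nuclear subunit genes are known targets of the transcription factors NRF1, GABPA, YY1 and the estrogen-related receptors with their coactivator Ppargc1a. The proximal tubule is rich in mitochondria, because it reabsorbs filtered solutes by active transport and relies on oxidative metabolism.

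Several features set libraries apart before any comparison. Slc34a1 lay at 866, 893 and 1040 FPKM in the tubule libraries. It was at 6.17, 833 and 166 FPKM in primary tumors 1, 2 and 3, and at 1.37 FPKM or less in the metastases and allografts. The summed level of 8 proximal tubule markers was 4842 to 5767 FPKM in the tubule cells, against 156, 3702 and 968 in primary tumors 1, 2 and 3. This sum was 175 to 221 FPKM in metastases, above primary tumor 1, and 37.5 to 108 in allografts. The 7 markers of other nephron segments summed to 306 to 4341 FPKM in primary tumors and to at most 6.69 in metastases and allografts. The part of retained kidney tissue in the primary tumor values was not tested. Macrophage markers (6 genes) summed to 6.34 to 7.29 FPKM in tubule cells, 350 to 2289 in primary tumors, 4674 to 5322 in metastases and 1395 to 5210 in allografts. Fibroblast markers (5 genes) summed to 0.948 to 1.91, 113 to 698, 315 to 421 and 702 to 1908 FPKM in the same order. Genes induced by cell dissociation (Fos, Fosb, Jun, Egr1 and Atf3) went the other way, at 410 to 1059 FPKM in the sorted tubule cells and 24.2 to 181 in tumors. These differences run with the groups, and their part in the comparisons with tubule cells was not tested. Lats1 (5.60 to 14.7 FPKM) and Lats2 (10.5 to 22.5 FPKM) were detected in every library. FPKM over a whole gene cannot resolve single exons, and the deletion was therefore not checked here. Estimated depth was 11.2 to 18.3 M fragments in tumor libraries and 4.73 to 6.16 M in tubule libraries. Mir6236, a gene within ribosomal RNA, took 317686 to 1082170 FPKM in tumor libraries and at most 57.2 in tubule libraries. The mitochondrial ribosomal RNA mt-Rnr1 was at 124 to 225 FPKM in tubule libraries and at 1008 to 56976 in tumor libraries. No source at hand states whether tumor and tubule libraries were prepared or processed alike, and such a difference cannot be told apart from the groups. Every comparison with tubule cells below carries this limit. In bulk RNA, fewer cells of a type and less RNA per cell cannot be told apart either.

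The 93 nuclear genes summed to 21079, 24857 and 24780 FPKM in the tubule libraries. Primary tumors 1, 2 and 3 had sums of 11391, 42405 and 18127 FPKM, metastases 11389, 11730 and 11315, and allografts 23242, 15817 and 12072. The metastases lay close together and below every tubule library, whereas primary tumor 2 lay above the tubule libraries and primary tumors 1 and 3 below them. The 7 mitochondrial genes summed to 202752, 217877 and 175706 FPKM in tubule libraries, 11397, 92224 and 58742 in primary tumors, 10025, 13085 and 12883 in metastases, and 13826, 17149 and 17518 in allografts. Here every tumor library lay below every tubule library.

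The ratio of the mitochondrial to the nuclear sum does not depend on how a column is scaled. It was 9.62, 8.77 and 7.09 in the tubule libraries and 1.00, 2.17 and 3.24 in primary tumors 1, 2 and 3. It was 0.880, 1.12 and 1.14 in metastases and 0.595, 1.08 and 1.45 in allografts. On the log2(FPKM + 1) scale, the mean mitochondrial gene stood 6.18 ± 0.21 (SD, n = 3) above the mean nuclear structural subunit in tubule cells. The same difference was 3.36 ± 1.00 in primary tumors, 2.39 ± 0.24 in metastases and 2.08 ± 1.02 in allografts. The 9 tumor libraries did not reach the tubule range in either measure, while the 3 tumor groups overlapped one another.

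**Figure D1:**
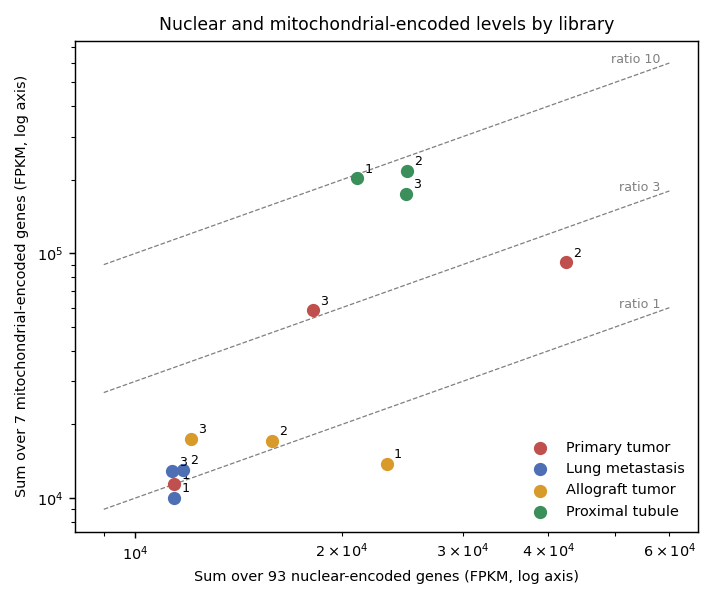
Summed FPKM of the 93 nuclear-encoded genes (horizontal, log axis) against that of the 7 mitochondrial-encoded genes (vertical, log axis); each point is a library with its replicate number, and dashed lines mark ratios of 1, 3 and 10. The tubule libraries lie at ratios of 7.09 to 9.62, primary tumors 2 and 3 at 2.17 and 3.24, and the other 7 tumor libraries between 0.595 and 1.45.

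The mitochondrial genes did not move as a block. mt-Nd4, a core subunit of complex I encoded at chrM:10167-11544, was at 21216, 21730 and 17677 FPKM in tubule cells. It was at 166, 1516 and 1492 FPKM in primary tumors, 125, 218 and 196 in metastases, and 123, 179 and 305 in allografts. Every tumor library lay far below every tubule library for this gene. The log2 change against tubule cells was -4.80 ± 0.74 (SE) in primary tumors (limma, adjusted p = 4.68e-04), -6.84 ± 0.74 in metastases (adjusted p = 2.65e-05) and -6.73 ± 0.74 in allografts (adjusted p = 2.47e-05). mt-Co1, the catalytic core of complex IV, was at 48487, 49317 and 40289 FPKM in tubule cells and at 5329, 40376 and 23604 in primary tumors. It was at 5020, 6111 and 6197 FPKM in metastases and 8337, 8823 and 7794 in allografts. Primary tumor 2 overlapped the tubule range, whereas all metastases and allografts lay below it. mt-Co1 fell by 2.99 in metastases (SE 0.73, adjusted p = 0.00409) and by 2.46 in allografts (SE 0.73, adjusted p = 0.0115) on the log2 scale. In primary tumors the change was -1.42 ± 0.73 and did not pass the test (adjusted p = 0.125).

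Within a library, mt-Nd4 amounted to 43.8, 44.1 and 43.9% of mt-Co1 in tubule cells and to 1.47 to 6.32% across the 9 tumor libraries. mt-Atp6, a membrane subunit of ATP synthase, amounted to 110, 129 and 131% of mt-Co1 in tubule cells and to 9.78 to 29.5% in tumors. The ratios for mt-Nd2 (22.1 to 25.4% against 1.18 to 8.71%) and mt-Nd5 (27.5 to 30.8% against 1.88 to 7.01%) were likewise separated. mt-Co2 stood nearer, at 110% of mt-Co1 in each tubule library and 50.8 to 95.9% in tumors. mt-Nd6, which is transcribed from the opposite strand to the other 6, amounted to 1.93 to 2.05% in tubule cells and 0.691 to 3.26% in tumors, with overlap. Mitochondrial messages are cut from long shared precursors, and these ratios describe measured levels only. mt-Rnr1 showed the reverse pattern. It amounted to 1.59 to 3.89% of mt-Rnr2 in tubule libraries and 60.4 to 191% in tumor libraries.

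**Figure D2:**
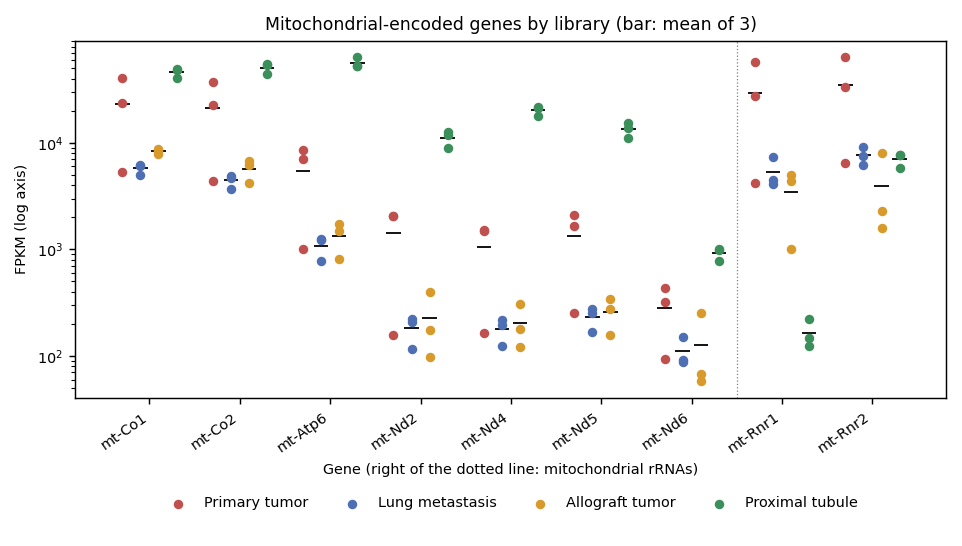
FPKM (log axis) of the 7 mitochondrial-encoded members and, right of the dotted line, of 2 mitochondrial ribosomal RNAs; points are libraries, colored by group, and bars are means of 3. Tubule libraries lie highest for the messages except where primary tumor 2 reaches them in mt-Co1, and lowest for mt-Rnr1.

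Against tubule cells, 5 of 7 mitochondrial genes fell in primary tumors, and all 7 fell in metastases and in allografts. In these comparisons 4.9%, 14.4% and 16.9% of the 16313 genes tested were called lower (limma, adjusted p under 0.05 over all genes). The median log2 change of the 7 was -3.65, -5.74 and -5.46. Over all genes the median change was positive, 0.59, 0.68 and 0.66. After rescaling to TPM it was -0.29, -0.18 and -0.37, so the zero of these comparisons depends on the scaling. The 3 comparisons share the tubule libraries, so their values are given side by side and are not independent. The 2 mitochondrial members that were not called in primary tumors were mt-Co1 and mt-Co2 (-1.70 ± 0.75, adjusted p = 0.0780). Between tumor groups, no mitochondrial gene was called in metastases against primary tumors or in allografts against metastases (9.59% of all genes called lower and 11.3% higher in the former, 13.3% and 10.4% in the latter). At an unadjusted p under 0.05 (limma) 5 mitochondrial genes were lower in metastases than in primary tumors, and 0 differed between allografts and metastases. Without primary tumor 1, all 7 were called lower than in primary tumors in both metastases and allografts, where 18.2% and 25% of all genes were. mt-Nd5 alone was lower in allografts than in primary tumors (-1.96 ± 0.68, adjusted p = 0.0389, where 21.1% of all genes were called lower), with overlapping ranges, and that call was lost without primary tumor 2 or 3 or allograft 1 or 2.

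In metastases, 41 of 91 tested nuclear genes fell and 4 rose against tubule cells, where 14.4% of all genes were called lower and 54% higher. In allografts 19 fell and 6 rose, where 16.9% of all genes were called lower and 52.2% higher. In primary tumors none fell by limma (1 at an unadjusted p under 0.05, Atp5g3) and 3 rose, where 4.9% were called lower and 48.2% higher. Each call used a spread per gene pooled over the 4 groups, which differed in spread as given below. With only the 2 compared groups fitted, 77 fell in metastases and 32 in allografts. Of all genes 19.6% and 17.7% were then called lower. The median log2 change of the 91 genes was -0.97 in metastases, -0.42 in allografts and -0.16 in primary tumors. Relative to the median of all genes it was -1.65, -1.08 and -0.74. Of the 91 genes, 87, 83 and 87 lay below the median of all genes in the respective comparison. The relative medians stayed negative under 4 other scalings of the columns, from -1.85 to -1.41 in metastases, -1.45 to -1.11 in allografts and -0.97 to -0.38 in primary tumors.

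Separation of the libraries gave a similar order. In metastases 78 nuclear and 7 mitochondrial genes had every library below every tubule library (20.7% of all genes did) and 6 nuclear genes had every library above (62.7%). In allografts 36 nuclear and 7 mitochondrial genes lay wholly below (19.7%) and 7 nuclear genes wholly above (55.9%). In primary tumors 0 nuclear and 6 mitochondrial genes lay wholly below (5.52%) and 4 nuclear genes wholly above (56.7%).

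The counts, in contrast, moved with the scaling. After rescaling to TPM (each column divided by its sum), 82 nuclear genes were called lower and 2 higher in metastases. In allografts the counts were 82 lower and 2 higher, and in primary tumors 70 lower and 0 higher. The shares of all genes called lower then were 35.7%, 42.3% and 33.1%, and those called higher 27.7%, 21.5% and 18.6%. Column sums were 1352270 to 2527750 in tumor libraries, with Mir6236 at 317686 to 1082170 of them. In tubule libraries they were 706093 to 738052, with Mir6236 at most 57.2. TPM rescaling is therefore not neutral between tumor and tubule libraries, and the part of Mir6236 in the TPM results here and below was not tested. Median-of-ratios scaling gave 21 lower and 0 higher in primary tumors and 54 lower and 4 higher in allografts. The shares of all genes were 18% lower and 25.5% higher in primary tumors, and 28.1% and 37.4% in allografts. With primary tumor 1 as the only primary tumor, assumed to vary like the other groups, 47 were called lower, where 12.1% of all genes were. Without primary tumor 2 alone the count was 38, where 10.2% of all genes were called lower. In metastases the count of 41 became 24 to 26 without any 1 metastasis or without tubule library 2 or 3. Of all genes 12.2 to 12.4% were called lower there. In allografts the count of 19 became 8, 9 and 8 without allograft 3, tubule library 2 and tubule library 3. There 16.3%, 15% and 15% of all genes were called lower, so these counts were below the share over all genes.

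**Figure D3:**
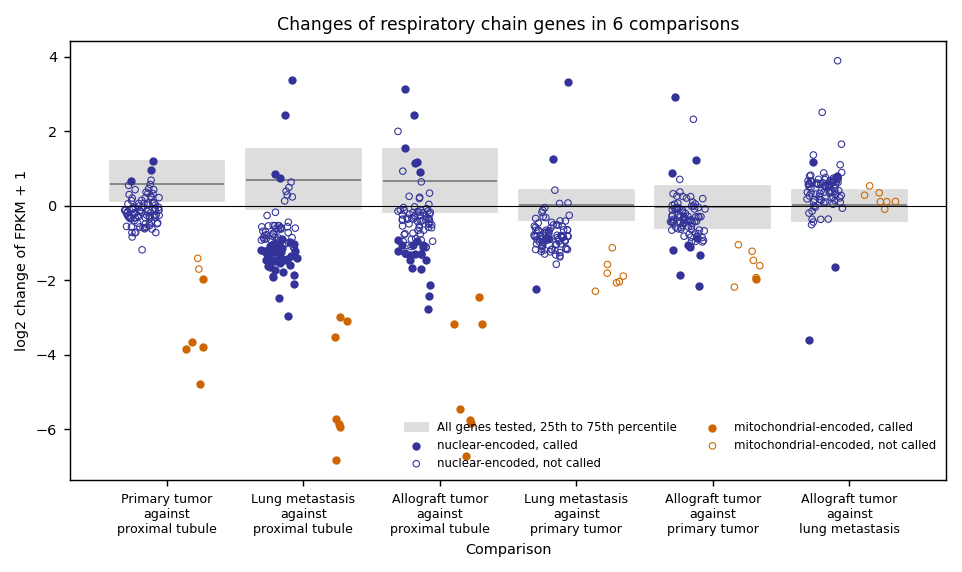
Log2 change of FPKM + 1 for each tested respiratory chain gene in 6 comparisons (points; filled where called at an adjusted p under 0.05), with nuclear genes in blue and mitochondrial genes in orange; grey bands span the 25th to 75th percentile of 16313 genes with the median as a line. Most nuclear genes sit below the median of all genes in the 3 comparisons with tubule cells, and the median of the mitochondrial genes lies lower still.

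Library by library, the structural nuclear subunits (76 genes, without assembly factors and tissue isoforms) moved largely together. Relative to the mean of the tubule libraries on the log2(FPKM + 1) scale, their median was -1.04, 0.83 and -0.40 in primary tumors 1, 2 and 3. For metastases it was -1.04, -0.97 and -1.05, and for allografts 0.02, -0.57 and -0.97. Primary tumor 1 thus stood at the level of the metastases, with 73 of 76 subunits below the tubule mean, whereas primary tumor 2 had 75 of 76 above it. The proximal tubule markers had the same order over the primary tumors (156, 3702 and 968 FPKM), and their part in these values was not tested. The spread of a subunit between libraries of a group had a median coefficient of variation of 69.4% in primary tumors and 34.0% in allografts. It was 4.70% in metastases and 9.35% in tubule cells, with the erratic Ndufs5 left out. Ndufs5, a small complex I subunit, was at 141, 5.98 and 0 FPKM in the tubule libraries and was not called in any of the 3 comparisons with them.

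**Figure D4:**
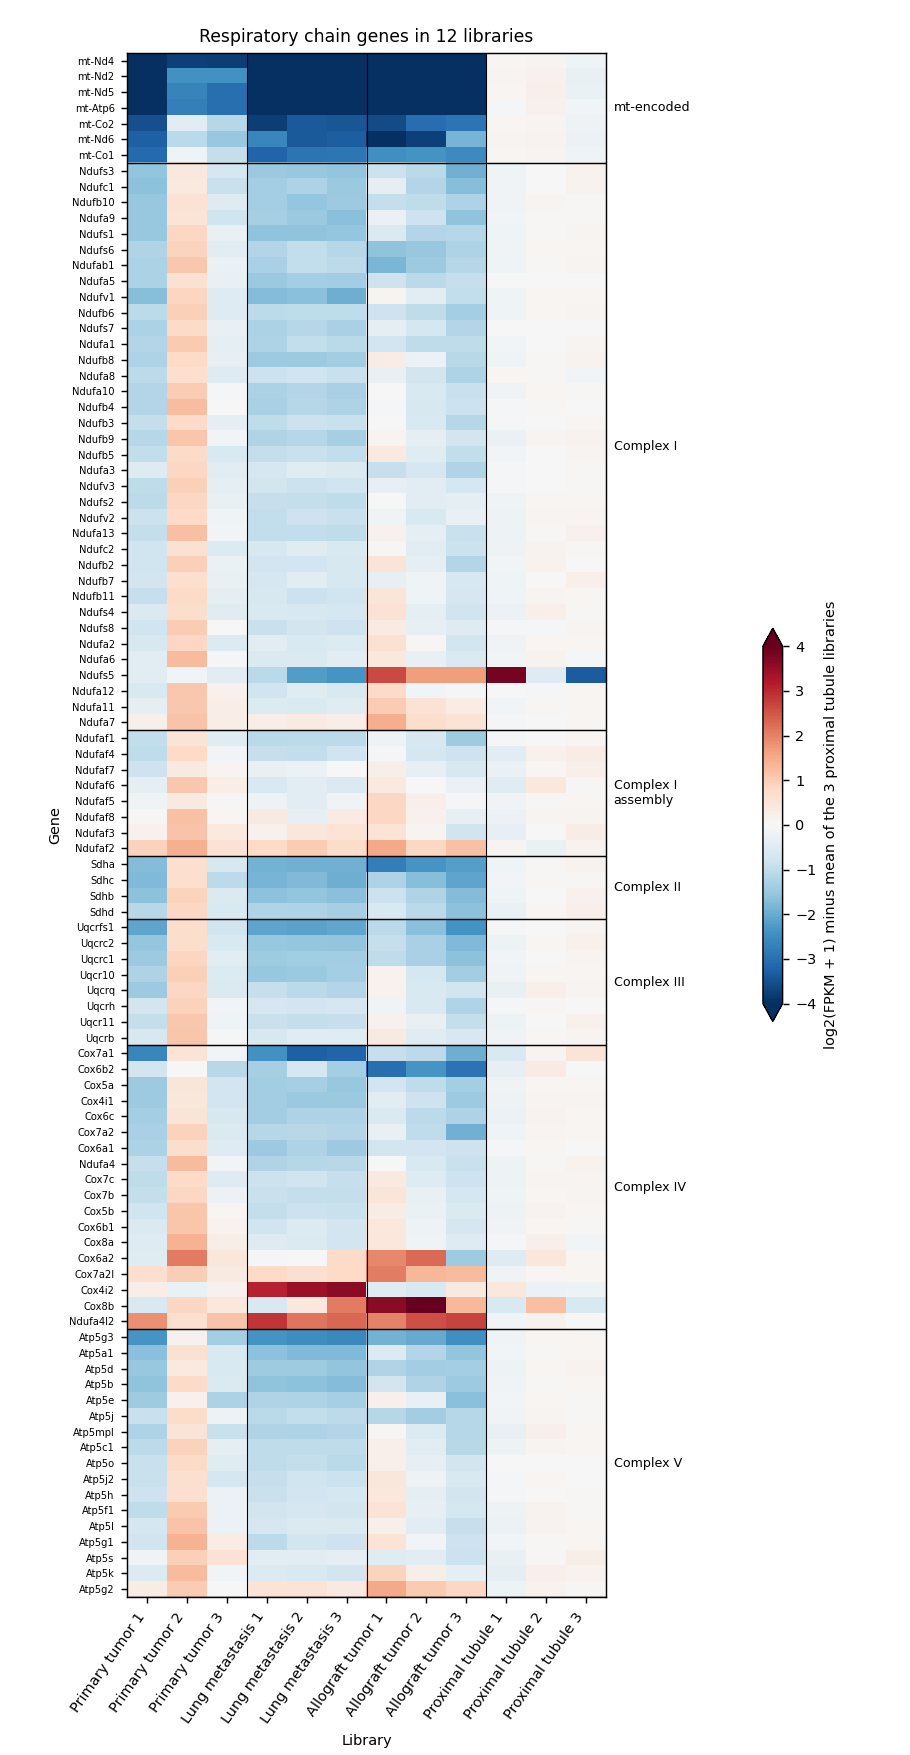
Log2(FPKM + 1) of 98 tested genes (rows, grouped by genome and complex) in 12 libraries (columns), each minus the mean of the 3 tubule libraries; colors end at -4 and 4, and values beyond take the end color. The 7 mitochondrial rows are below 0 in all 9 tumor libraries, primary tumor 2 is above 0 in most nuclear rows, and Cox4i2, Cox8b, Ndufa4l2, Cox7a2l, Ndufaf2 and Atp5g2 stand out against their neighbours.

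Complex II had the lowest median of the complexes in metastases and allografts. Its 4 genes fell in both groups, where 14.4% and 16.9% of all genes were called lower. Their medians were -1.75 and -1.48, against -0.98 and -0.42 for the 36 subunits of complex I. Sdha, the flavoprotein that oxidizes succinate (chr13:74322254-74350280, minus strand, GRCm38), was at 209, 246 and 262 FPKM in tubule cells. It was at 70.7, 379 and 151 FPKM in primary tumors, 62.7, 62.0 and 61.9 in metastases, and 34.5, 46.0 and 51.3 in allografts. Allografts were the lowest group, without overlap with any other, and primary tumors spanned the tubule range. Sdha changed by -1.92 ± 0.46 in metastases (limma, adjusted p = 0.00372) and by -2.43 ± 0.46 in allografts (adjusted p = 8.25e-04) against tubule cells. Against primary tumors it was lower in allografts by -1.86 ± 0.46 (adjusted p = 0.00925), a call that was lost without primary tumors 2 and 3 or when only these groups were fitted. In metastases against primary tumors the change of -1.35 ± 0.46 did not pass the test (adjusted p = 0.0619).

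Sdhb, the iron-sulfur subunit beside Sdha, was at 202, 233 and 258 FPKM in tubule cells, 73.2, 431 and 154 in primary tumors, 73.8, 76.2 and 71.0 in metastases, and 126, 99.9 and 68.0 in allografts. Sdha therefore amounted to 103, 106 and 101% of Sdhb in tubule cells, 96.6, 88.0 and 98.1% in primary tumors and 85.1, 81.3 and 87.1% in metastases. In allografts it amounted to 27.5, 46.0 and 75.5%, below every library of the other groups. Sdhc and Sdhd, which anchor the complex in the membrane, fell by 1.87 and 1.25 in metastases and by 1.68 and 1.11 in allografts on the log2 scale. Adjusted p-values were 0.00601 and 0.0243 in metastases, and 0.0101 and 0.0396 in allografts.

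Complex I, the NADH dehydrogenase, had 17 of 36 subunits lower in metastases and 7 lower with 1 higher in allografts. Over all genes 14.4% were called lower in metastases, and 16.9% lower and 52.2% higher in allografts, so the count of lower subunits in allografts was near the share over all genes. Its largest called fall in metastases was Ndufv1 (-1.78 ± 0.51, adjusted p = 0.0101), the NADH-binding flavoprotein. Ndufv1 was at 102, 120 and 121 FPKM in tubule cells and at 33.9, 35.1 and 28.7 in metastases. In allografts the same gene was at 124, 85.3 and 57.6 FPKM and overlapped the tubule range. The largest called falls in allografts were Ndufab1 (-1.47 ± 0.46, adjusted p = 0.0150), the mitochondrial acyl carrier protein, and Ndufs6 (-1.46 ± 0.41, adjusted p = 0.00823). Ndufa7 was the subunit higher in allografts (0.91 ± 0.28, adjusted p = 0.0143), with -0.51 after rescaling to TPM. Of the 8 assembly factors, Ndufaf2 rose in all 3 tumor groups, by 0.97, 0.85 and 1.17 in primary tumors, metastases and allografts. It was at 12.5, 9.47 and 12.9 FPKM in tubule cells and 17.6 to 34.9 across the 9 tumor libraries without overlap, but after TPM rescaling its changes were -0.08, -0.16 and -0.18. The only assembly factor called lower was Ndufaf1 in metastases (-1.06 ± 0.37, adjusted p = 0.0270).

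In complex III, 4 of 8 genes fell in metastases and 3 in allografts, where 14.4% and 16.9% of all genes were called lower. Uqcrfs1, the Rieske iron-sulfur protein, was at 178, 188 and 202 FPKM in tubule cells, 43.3, 312 and 108 in primary tumors, 43.1, 42.6 and 44.0 in metastases, and 90.1, 59.1 and 35.5 in allografts. It changed by -2.11 ± 0.57 in metastases (adjusted p = 0.00718) and by -1.70 ± 0.57 in allografts (adjusted p = 0.0206), with no overlap with tubule cells in either group. The call in allografts was lost without allograft 3 or tubule library 3. The core proteins Uqcrc1 and Uqcrc2 fell with it in both groups. Uqcrb, the most abundant gene of the complex per length, was at 407, 460 and 483 FPKM in tubule cells and 287, 320 and 324 in metastases, and was not called there. Cyc1, the heme-bearing subunit of this complex, lies outside the naming rule and fell by 1.86 in metastases and 1.41 in allografts (adjusted p = 0.00595 and 0.0233).

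In complex V, 8 of 17 genes fell in metastases (14.4% of all genes). In allografts 3 fell and 1 rose (16.9% and 52.2% of all genes), so the count of lower genes was near the share over all genes there. The subunit c genes Atp5g1, Atp5g2 and Atp5g3 encode the same mature ring protein with different import sequences, and they parted. Atp5g3 (chr2:73908447-73911326, minus strand) was at 630, 739 and 733 FPKM in tubule cells, 136, 782 and 271 in primary tumors, 133, 125 and 115 in metastases, and 188, 172 and 127 in allografts. Atp5g2 (chr15:102662864-102672352, minus strand) was at 144, 186 and 175 FPKM in tubule cells, 204, 341 and 165 in primary tumors, 246, 243 and 217 in metastases, and 485, 347 and 297 in allografts. Atp5g3 was thus below the tubule range in every metastasis and allograft, whereas Atp5g2 was above it in each. Atp5g3 changed by -2.48 ± 0.49 in metastases (adjusted p = 0.00110) and -2.12 ± 0.49 in allografts (adjusted p = 0.00274). Atp5g2 rose by 1.13 ± 0.28 in allografts (adjusted p = 0.00383). That rise was lost under median-of-ratios scaling and became -0.29 after rescaling to TPM.

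Shares within the family do not depend on column scaling. Atp5g3 made up 65.6 to 66.1% of the summed FPKM of the 3 genes in tubule cells, 25.8 to 28.1% in metastases and 19.6 to 24.7% in allografts. Atp5g2 made up 15.2 to 16.5% in tubule cells, 49.0 to 52.1% in metastases and 49.8 to 55.8% in allografts. Primary tumor 1 stood with the metastases (Atp5g2 at 45.2%, Atp5g3 at 30.0%), while primary tumors 2 and 3 lay between (Atp5g2 at 20.9 and 24.4%, Atp5g3 at 47.9 and 40.2%). The most abundant gene of complex V per length, Atp5k, was at 829 to 1228 FPKM in tubule cells and 646 to 725 in metastases, and was not called there.

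Sequences before RefSeq starts are shown for Sdha, Sdhd, Atp5g2 and Atp5g3, because known regulators of the chain bind such elements. The other complex II and subunit c genes are not shown. Sdhb and Atp5g1 held no NRF1 or estrogen-related receptor match in the windows described below, and Sdhc had no entry there. Distances are counted from the RefSeq start, which is chr13:74350240 for Sdha and chr15:102671047 for Atp5g2. Both lie inside the gene spans given above, which come from another annotation (GENCODE) and reach to a farther transcript start. The following stretches are from RefSeq, build GRCm38.p6, read 5′ to 3′ on the gene's strand, with the motif letters in capitals. For Sdha, 3 matches to the NRF1 motif (the capitals of the first 5 lines, with the sixth letter free) lay 98, 55 and 10 bases before the start, at chr13:74350319-74350348, chr13:74350276-74350305 and chr13:74350241-74350260.
Sdha first: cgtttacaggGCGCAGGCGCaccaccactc
Sdha middle: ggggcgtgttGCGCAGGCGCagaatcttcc
Sdha nearest: gcgactcggtGCGCAAGCGC
Sdhd (chr9:50603909-50603938): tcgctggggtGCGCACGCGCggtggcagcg
Atp5g2 (chr15:102671070-102671099): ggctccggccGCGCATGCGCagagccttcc
Atp5g3 (chr2:73911327-73911446): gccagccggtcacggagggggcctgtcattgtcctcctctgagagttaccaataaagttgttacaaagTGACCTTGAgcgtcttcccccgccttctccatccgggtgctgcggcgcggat
The capitals in Atp5g3 are the estrogen-related receptor motif TCAAGGTCA on the opposite strand. Atp5g3 also held an NRF1 match, as Atp5g2 did, and Sdhd an estrogen-related receptor match. These 2 matches do not lie wholly inside the stretches shown and are not marked. Sdha and Sdhd have neighbours starting on the other strand within 250 bases, Ccdc127 and Timm8b, and the first Sdha stretch and that of Sdhd overlap exons of these neighbours. The other Sdha stretches and that of Atp5g2 overlap exons of other transcripts of the same gene.

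Over the windows from 250 bases before to 50 bases after a start, 74 of the 93 nuclear genes had a RefSeq entry. Both strands were searched. The NRF1 motif was present in 19 of 74 genes (25.7%), against 5.19% of 27025 genes. The YY1 motif AANATGGCG was present in 11 (14.9%, against 2.76%), the GABPA motif CCGGAAGT in 5 (6.76%, against 4.31%) and the SP1 motif GGGGCGGGG in 11 (14.9%, against 12.9%). The estrogen-related receptor motif was present in Atp5g3 and Sdhd alone (2.7%, against 0.466%). At least one of the NRF1, GABPA and YY1 motifs was found in 33 genes (44.6%, against 11.2%). A match describes letters only, and no binding was measured.

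Complex IV held 2 of the 3 nuclear genes that rose in primary tumors, 3 of 4 in metastases and 3 of 6 in allografts. With 18 of its genes tested, these rises were rarer than over all genes, of which 48.2%, 54% and 52.2% were called higher. Cox7a2l, which takes part in joining complexes III and IV, was at 85.3, 101 and 99.2 FPKM in tubule cells, 152, 187 and 122 in primary tumors, 164, 149 and 164 in metastases, and 396, 238 and 227 in allografts. Every tumor library was above every tubule library, and every allograft above every other tumor. It rose by 0.67, 0.74 and 1.54 against tubule cells (SE 0.23, adjusted p = 0.0335, 0.0159 and 1.86e-04). After rescaling to TPM none of the 3 was called, and the changes were -0.43, -0.32 and 0.12. The call in primary tumors was also lost without primary tumor 1 or 2 or any 1 tubule library, and that in metastases without tubule library 1. Its share among Cox7a1, Cox7a2 and Cox7a2l was 24.1 to 26.0% in tubule cells, 56.6 to 59.6% in metastases and 63.0 to 75.5% in allografts. Primary tumors 1, 2 and 3 had shares of 59.3, 26.5 and 37.7%.

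Ndufa4l2, a paralog of the complex IV subunit Ndufa4 and a known hypoxia-inducible gene, was at 1.35, 1.77 and 1.52 FPKM in tubule cells, 7.96, 2.98 and 4.57 in primary tumors, 17.6, 10.3 and 11.5 in metastases, and 8.95, 14.3 and 15.6 in allografts. It rose by 1.20, 2.44 and 2.42 on the log2 scale (SE 0.31, adjusted p = 0.00887, 7.55e-05 and 6.69e-05). The groups did not overlap with tubule cells. The calls in metastases and allografts held under every alternative run for them, and that in primary tumors was lost under all 4 other scalings. Ndufa4 itself, at 571 to 721 FPKM in tubule cells, fell by 1.15 in metastases (adjusted p = 0.0443, lost without any 1 metastasis or tubule library). Ndufa4l2 made up at most 5.79% of the sum of both genes in any library.

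Cox4i2, a form of subunit 4 known from lung and other oxygen-sensing tissue, was at 14.6, 19.1 and 21.4 FPKM in metastases and at 1.47 or less in every other library. It rose by 3.37 ± 0.30 against tubule cells (adjusted p = 8.63e-06) and by 3.31 ± 0.30 against primary tumors (adjusted p = 4.66e-05), and was lower in allografts than in metastases by -3.60 ± 0.30 (adjusted p = 2.28e-05). These calls held under every alternative run. Markers of lung epithelium (Sftpc, Sftpb, Scgb1a1 and Ager) summed to 11685 to 18648 FPKM in the same 3 libraries and to at most 9.44 elsewhere. Sftpc was at 3851, 5344 and 5694 FPKM in metastases and 0 in tubule cells. Pericyte and smooth muscle markers (9 genes) summed to 281 to 327 FPKM in metastases, within the range of 110 to 464 in the other tumors. Endothelial markers (4 genes) summed to 162 to 291 FPKM in metastases and 77.3 to 99.5 in primary tumors. Their sum was 32.9 to 64.7 FPKM in allografts and 24.1 to 36.6 in tubule cells. The part of lung tissue or of these cell types in the Cox4i2 result was not tested. The ubiquitous form Cox4i1, at 727, 915 and 906 FPKM in tubule cells and 323, 304 and 298 in metastases, fell by 1.45 (adjusted p = 0.0113).

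Tissue forms of complex IV also differed in allografts or metastases. Cox6b2, best known from testis, was at 12.8, 20.6 and 16.0 FPKM in tubule cells, 9.24, 16.2 and 6.88 in primary tumors, 5.83, 9.43 and 5.69 in metastases, and 1.13, 2.35 and 1.21 in allografts. Allografts lay below all other libraries, and the gene was lower there by -2.77 against tubule cells, -2.15 against primary tumors and -1.64 against metastases (SE 0.32, adjusted p = 3.26e-05, 7.24e-04 and 0.00455). Testis markers (Prm1, Tnp1 and Acrv1) summed to 1.93 FPKM or less in every library. Cox7a1, the heart and muscle form of subunit 7a, was at 27.0, 45.7 and 60.0 FPKM in tubule cells, 6.10, 61.4 and 39.2 in primary tumors, 7.06, 3.50 and 3.71 in metastases, and 21.7, 20.1 and 10.1 in allografts. It fell by 2.96 in metastases (SE 0.69, adjusted p = 0.00311). In allografts the change was -1.31 ± 0.69 and did not pass the test (adjusted p = 0.113).

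Cox8b, the muscle form of subunit 8, was at 17.4, 33.4 and 2.73 FPKM in allografts 1, 2 and 3, at 0, 2.46 and 0 in tubule cells and at 5.39 or less elsewhere. It rose by 3.14 ± 0.90 in allografts (adjusted p = 0.00945). Cox6a2, another muscle form, was at 9.21, 11.8 and 0 FPKM in the same 3 libraries and was not called (adjusted p = 0.378). The 7 striated muscle markers summed to 505, 389 and 36.1 FPKM in allografts 1, 2 and 3, with Acta1 at 267, 227 and 1.00. They summed to 74.0 to 123 FPKM in metastases, 2.70 to 5.79 in primary tumors and at most 0.610 in tubule cells. White fat markers (Adipoq, Plin1 and Cfd) summed to 490, 1816 and 78.9 FPKM in the allografts. The part of host muscle and fat in the Cox8b result was not tested.

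**Figure D5:**
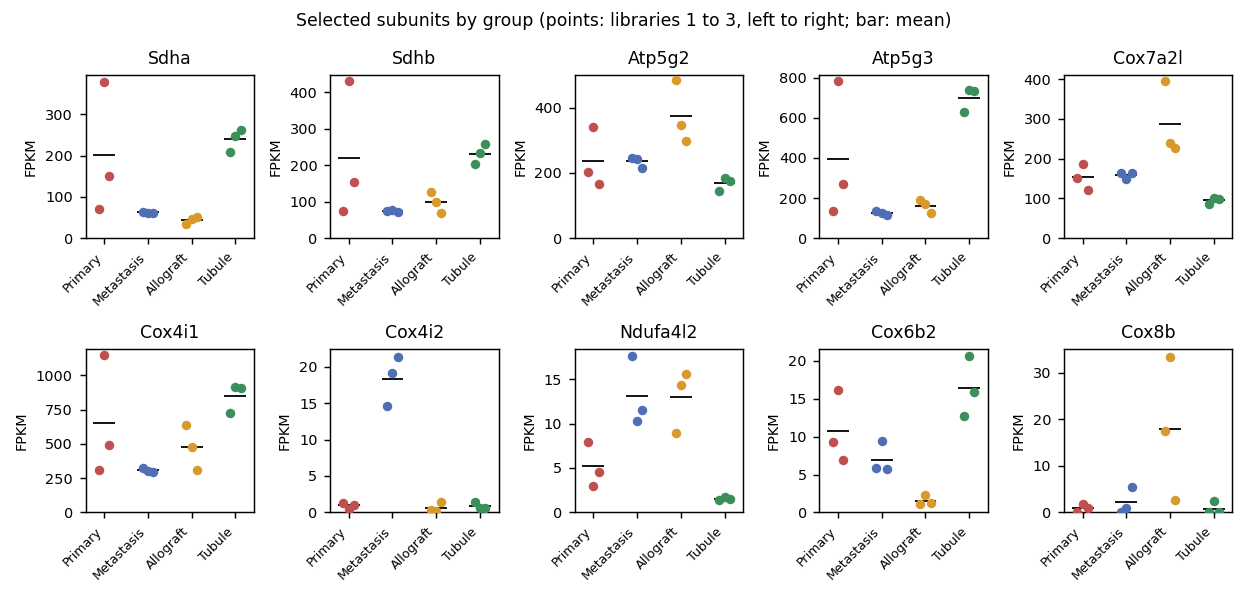
FPKM of 10 nuclear genes by group (each panel with its own axis from 0); points are libraries 1 to 3 from left to right and bars are means. Sdha, Sdhb, Atp5g3 and Cox4i1 are lower in metastases than in tubule cells, Atp5g2 and Cox7a2l are higher in allografts, and Cox4i2 is above 1.47 FPKM in metastases alone.

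Between tumor groups few nuclear genes were called. In metastases against primary tumors, 2 of 91 rose (Cox4i2 and Ndufa4l2, 1.24 ± 0.31) and 2 fell (Cox7a1, -2.23 ± 0.69, and Atp5s, -0.91 ± 0.26), where 11.3% and 9.59% of all genes were called higher and lower. The median change of the nuclear genes was -0.83, against 0.01 over all genes. All metastases lay below all primary tumors for 22 nuclear genes (20.1% of all genes) and above them for 2 (21.9%). Quantile normalization gave 34 lower (11.3% of all genes) and leaving out primary tumor 1 gave 60 (18.2%). Without primary tumors 2 and 3, in contrast, the median was 0.03. In allografts against primary tumors, 3 rose and 7 fell, where 20.5% and 21.1% of all genes were called. Those that fell were Cox6b2, Sdha, Ndufab1, Ndufs6, Atp5j, Atp5s and Ndufa3, and those that rose were Cox8b, Ndufa4l2 and Cox7a2l. All allografts lay below all primary tumors for 6 nuclear genes (22.5% of all genes) and above them for 4 (21.2%). The split was 3 higher and 24 lower after quantile normalization (23.1% and 18% of all genes). After TPM rescaling it was 0 higher and 11 lower (10.6% and 22.6%). The calls other than Cox6b2 were lost under at least 1 alternative.

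In allografts against metastases, 2 nuclear genes rose and 2 fell, where 10.4% and 13.3% of all genes were called higher and lower. Ndufa11, an accessory subunit of complex I, was at 29.0, 21.1 and 17.2 FPKM in allografts and 8.99, 8.91 and 9.61 in metastases, a change of 1.17 ± 0.32 (adjusted p = 0.0230). Cox7a2l changed by 0.80 ± 0.23 (adjusted p = 0.0308). Both rises were lost after TPM rescaling, without any 1 metastasis and without allograft 1. Cox4i2 and Cox6b2 were the genes that fell. The median nuclear change was 0.53 against 0.03 over all genes, and 36 of 91 genes had all allografts above all metastases, where 24.8% of all genes did. For 6 genes all allografts lay below all metastases (23.6%).

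Genes of other mitochondrial lists are given for comparison. Of 16 citric acid cycle enzymes, 15 fell in metastases, 8 in allografts and 0 in primary tumors against tubule cells (14.4%, 16.9% and 4.9% of all genes). The largest falls were in Suclg2, Suclg1 and Ogdh, which act at the steps before succinate, at -2.58, -2.13 and -1.84 in metastases and -2.99, -2.38 and -2.49 in allografts. The list median in metastases was -1.43. Of 76 mitochondrial ribosomal protein genes, 7 rose and 7 fell in metastases, 27 rose and 5 fell in allografts, and 10 rose and 1 fell in primary tumors. The shares of all genes that rose were 54%, 52.2% and 48.2% in the same order, so rises were rarer in this list than over all genes. Their medians were -0.01, 0.53 and 0.21, above those of the respiratory chain genes in each comparison. Of 20 genes for import, outer membrane and chaperones, 1 rose and 10 fell in metastases, 4 rose and 3 fell in allografts, and none was called in primary tumors. Of 40 tested chain genes outside the naming rule, mostly assembly factors, 2 rose and 8 fell in metastases, 5 rose and 8 fell in allografts, and 4 rose and 0 fell in primary tumors. Uqcc2, an assembly factor of complex III, rose by 2.36 in allografts (adjusted p = 1.14e-05).

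Among 27 regulators, Ppargc1a was at 20.6, 22.8 and 19.5 FPKM in tubule cells, 3.91, 17.3 and 19.4 in primary tumors, 0.939, 0.730 and 0.881 in metastases, and 0.425, 0.462 and 0.757 in allografts. It changed by -3.57 in metastases and -3.83 in allografts (SE 0.43, adjusted p = 5.25e-05 and 2.91e-05). Esrrg, an estrogen-related receptor, was at 24.3, 26.1 and 27.8 FPKM in tubule cells, 5.90, 19.0 and 17.0 in primary tumors, 0.483, 0.547 and 0.430 in metastases, and 0.187, 0.356 and 0.211 in allografts. It fell in all 3 tumor groups, by 1.00, 4.18 and 4.43. Primary tumor 1 was the lowest primary tumor for both genes, as it was for the nuclear subunits. Other libraries went the other way. Allograft 1 was the lowest allograft for both genes but had the highest nuclear sum of the allografts (23242 FPKM). Primary tumor 3 was above primary tumor 2 for Ppargc1a but below it for the nuclear subunits. A relation between these genes and the subunits was not tested. Esrra fell by 1.60 in metastases and 1.52 in allografts, and Nrf1 rose by 0.75, 0.98 and 1.54 in primary tumors, metastases and allografts. Over all genes the median change was 0.59, 0.68 and 0.66 in the same order, and -0.29, -0.18 and -0.37 after rescaling to TPM. Tfam, which packages and transcribes mitochondrial DNA, was not called against tubule cells. In all, 6 regulators rose and 9 fell in metastases, 10 rose and 6 fell in allografts, and 4 rose and 3 fell in primary tumors. The shares of all genes that rose and fell were 54% and 14.4% in metastases, 52.2% and 16.9% in allografts, and 48.2% and 4.9% in primary tumors.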

How the data were processed

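Tumor and tubule RNA was extracted with RNeasy Micro, per the labels' protocols; library kind and strand are not stated there. The authors deposited FPKM values per gene, and bcl2fastq 2.17.1.14 and Salmon are named per the submitters' processing notes. Values in tumor columns fell on steps of whole fragments, from which depth was estimated, and those in tubule columns less exactly. Symbols came from the mouse gene annotation. The 16313 genes that reached 1 FPKM in 3 libraries were tested on log2(FPKM + 1) with limma 3.58.1 in R 4.3.3, with 1 fit over 4 groups and Benjamini-Hochberg adjustment over all genes at 0.05. Such log2 changes understate those of low genes. Whether the fit holds for groups that differ in spread, as the groups here did, was not tested. The genes and lists were chosen with earlier results of these data known. Named genes were all mitochondrial members, the Sdh genes, the tissue isoforms, and per complex the most abundant member and the called members with the largest changes; others were chosen after their values were seen. Alternatives changed pseudocount, filter, scaling, fitted groups, a replicate block and the libraries included.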

Additional observations from a re-analysis of the deposited data

How the results depend on the processing

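Alternatives are given in the order primary tumors, metastases and allografts against tubule cells, unless named. TPM rescaling gave 0, 2 and 2 nuclear genes higher and 70, 82 and 82 lower. Of all genes 18.6%, 27.7% and 21.5% were called higher and 33.1%, 35.7% and 42.3% lower. Nuclear medians were -1.26, -2.02 and -1.82, and mitochondrial medians -6.80 and -6.88 in metastases and allografts. Median-of-ratios scaling gave 0 and 2 higher in primary tumors and metastases, where 25.5% and 37.4% of all genes were. It gave 21, 80 and 54 lower, where 18%, 26.8% and 28.1% of all genes were. Nuclear medians were -1.57 and -1.06 and mitochondrial medians -6.35 and -6.10 in metastases and allografts. Quantile normalization gave 1 higher in primary tumors (13.9% of all genes) and 14, 79 and 62 lower, with nuclear medians of -1.44 and -1.10. Of all genes 21.3%, 32.3% and 30.5% were called lower, so the 14 in primary tumors were below that share. Mitochondrial medians were -6.26 and -6.40. The mitochondrial minus nuclear level in tubule cells was 6.69 after this normalization. Rescaling without the 50 most abundant genes gave 1 higher in primary tumors (30.5% of all genes) and 10, 79 and 71 lower. Of all genes 10.2%, 22.7% and 28.3% were called lower, so the 10 in primary tumors were near that share. Nuclear medians were -1.41 and -1.13 and mitochondrial medians -6.18 and -6.17. Fitting only the groups compared gave 3 mitochondrial calls in primary tumors and 77 and 32 nuclear genes lower in metastases and allografts. Of all genes 2.93%, 19.6% and 17.7% were then called lower. With structural subunits only, 1, 1 and 3 were higher, where 48.2%, 54% and 52.2% of all genes were.

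In metastases against primary tumors, nuclear genes lower were 1 at pseudocount 5 (8.74% of all genes), 0 without a filter (6.39%) and 0 with TPM (6.54%). They were 34 with quantile normalization (11.3%), 18 without the 50 most abundant genes (10.7%) and 0 in the fit of these groups only (2.84%). Among structural subunits 0 were lower (9.59%). Nuclear genes higher were 1 with TPM (8.42% of all genes), 1 without the 50 most abundant genes (8.15%) and 1 with these groups only (4.36%). Among structural subunits 0 were higher (11.3%). Mitochondrial calls were 1 without the 50 most abundant genes and 1 with quantile normalization. In allografts against primary tumors, TPM gave 0 higher (10.6% of all genes), 11 lower (22.6%) and 3 mitochondrial calls. Quantile normalization gave 24 lower (18%) and 3 mitochondrial calls, and rescaling without the 50 most abundant genes 19 (29.3%) and 4. No filter gave 0 mitochondrial calls. The fit of these groups only gave 1 higher (8.61%), 1 lower (9.13%) and 0 mitochondrial, and structural subunits 1 higher (20.5%). In allografts against metastases, nuclear genes higher were 0 with TPM (2.84% of all genes), 4 with quantile normalization (13.8%) and 8 with these groups only (11.2%). Of structural subunits 0 were lower (13.3%). The nuclear median was 0.17 with TPM, and the mitochondrial median was -0.24 with TPM, -0.15 without the 50 most abundant genes and -0.098 with quantile normalization.

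Without primary tumors 2 and 3, primary tumors against tubule cells had 47 lower and medians of -0.99 and -5.71 (nuclear, mitochondrial). Metastases against primary tumors then had 1 higher, 0 lower and medians of 0.028 and 0.074. Allografts against primary tumors had 1 lower, 0 mitochondrial calls and medians of 0.49 and 0.29. Single genes changed sign with TPM (Ndufaf2 -0.078, -0.16 and -0.18, Cox7a2l -0.43 and -0.32, Ndufa7 -0.51 and Atp5g2 -0.29), and Sdha, at -0.57 in primary tumors, ranged from -1.19 to 0.010 without 1 library. The cause was not tested.

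Leaving out 1 library of the compared groups at a time, nuclear genes lower ranged from 0 to 38, 24 to 33 and 8 to 20 against tubule cells. The shares of all genes called lower ranged from 3.21 to 10.2%, 12.2 to 12.8% and 15 to 16.3%. The nuclear median in primary tumors ranged from -0.66 to 0.22. In metastases against primary tumors, nuclear genes higher ranged from 1 to 2, lower from 0 to 60 and mitochondrial calls from 0 to 7. Of all genes 5.2 to 20.2% were called higher and 4.32 to 18.2% lower. In allografts against primary tumors the higher, lower and mitochondrial counts ranged from 1 to 5, 3 to 32 and 0 to 7. Of all genes 14.8 to 24.2% were called higher and 15.7 to 25% lower, and the nuclear median ranged from -0.78 to 0.11. In allografts against metastases, nuclear genes higher ranged from 0 to 4 (5.03 to 10.1% of all genes) and the mitochondrial median from -0.13 to 0.53.

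Deviations of same-numbered libraries correlated at -0.043 to 0.098. Such values cannot show whether these libraries came from the same animal, which the labels do not state. With the replicate number as a block, nuclear genes lower were 1 in primary tumors against tubule cells (4.9% of all genes) and 1 in metastases against primary tumors (9.04%). Mitochondrial calls were 2 in metastases and 3 in allografts against primary tumors, where 9.04% and 20.2% of all genes were called lower. Depth, 4.73 to 6.16 M fragments in tubule libraries, limits the low isoforms such as Cox8b and Cox4i2.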
